A study of Lactuca sativa with 12 samples.

Results

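Above-ground tissue of the lettuce cultivar 'Salinas' (Lactuca sativa) was compared between plants held for 24 h at 4 °C and plants that had not left the warm, here called 24 h and 0 h. RNA-seq was performed on 3 replicates of each, out of 12 samples that also include 4 h and 7 d in the cold. All plants were labelled 18 days old. The paper gives this as the age of plants used for the treatments, so that age at harvest may differ by the time in the cold. Plants at 0 h came from 20 °C with a 16 h photoperiod and 350 to 400 µmol m−2 s−1 of light, and cold-treated plants received about 100 µmol m−2 s−1, also with a 16 h photoperiod. Temperature and light changed together, so that their effects cannot be told apart, and the time of day of harvest is not given in the sources used here. Levels are given as counts per 1000000 reads (CPM). The comparison covered every gene that reached 0.5 CPM in 2 or more of the 6 samples, namely 21680 of the 23933 genes in the deposited table. Of the 2253 genes left out, 256 had no read in any of the 6 samples, 1653 were under 0.5 CPM in all 6, those without a read included, and 600 reached it in 1 of 6.

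Chilling without frost prepares the tissues of many plants to survive a later frost, and this response is termed cold acclimation. Its best known regulators in Arabidopsis are the CBF/DREB1 transcription factors, which are induced soon after transfer to the cold and bind a short element in the promoters of cold-responsive (COR) genes. COR genes include those of dehydrins and other late embryogenesis abundant (LEA) proteins, very hydrophilic proteins thought to protect membranes and enzymes when cells lose water, and those of enzymes that make soluble sugars and proline. Growth slows in the cold at the same time, and the circadian clock, which regulates many COR genes, is itself sensitive to temperature and light.

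The depth was similar in both groups, with 19503374 to 21008819 reads on the genes of the table at 0 h and 19377320 to 21109648 at 24 h. At this depth 3 reads in a library, taken as the smallest detectable level, were on average 0.148 CPM at 0 h and 0.147 CPM at 24 h, and this limit covers counting error only. The 0 h replicate 3 stood apart from the other samples of its group. Its correlations over genes on the log2(CPM + 1) scale with the 0 h replicates 1 and 2 were 0.975 and 0.978, whereas these correlated at 0.993 with each other and the 24 h samples at 0.992 to 0.993. In 758 genes it differed by at least 1 on that scale from the mean of the other 0 h samples, against 120 and 90 genes for these. Results whose call changes or that move by more than 1.5 times without it are given with both values, a check chosen after the data were seen. As markers of green tissue, 5 genes of the Rubisco small chain summed to 32247 to 33774 CPM at 0 h and 21352 to 24172 CPM at 24 h. A further 3 genes of chlorophyll a-b binding proteins summed to 6302 to 7359 CPM and 4154 to 4864 CPM. Among markers of other tissues, 7 vascular genes were all short of the threshold, with 2 sieve element occlusion genes summing to 73.1 to 114 CPM at 0 h and 59.4 to 79.1 CPM at 24 h, 4 laccase genes to 23.8 to 30.3 CPM and 14.5 to 27.3 CPM, and the XCP gene at 18.8 to 24.9 CPM and 14.03 to 20.5 CPM. The single Casparian strip gene, of root tissue, was at 5.24 to 7.82 CPM at 0 h and 11.2 to 13.7 CPM at 24 h, and 5 floral homeotic or MADS-box genes summed to 27.6 to 34.6 CPM and 60.4 to 63.1 CPM, of which 3 rose and 1 fell. The part of these tissues in the results was not tested. All markers were found by descriptions in a list of cold-responsive genes that the study compiled from these samples. They were thus selected for a change in the cold and are not neutral measures of tissue. The reference genes IPP2 and EIF2a, with log2 fold changes of 0.17 and 0.42, did not pass the threshold. EIF2a missed it by size only, with all 24 h values above all 0 h values (limma, adjusted p = 0.00562). The groups overlapped for IPP2 (limma, adjusted p = 0.28).

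A day in the cold changed the transcript levels of 2127 genes (9.81% of those tested) at least 2-fold, with an adjusted p-value of at most 0.01 (limma on log2(CPM + 1), Benjamini-Hochberg adjustment). Of these, 1336 genes (6.16%) were upregulated and 791 (3.65%) were downregulated. Rises were also larger than falls. A log2 fold change of at least 3 was reached by 108 of the upregulated genes and of at least 5 by 20, whereas 8 downregulated genes passed -3. A total of 4411 further genes passed the adjusted p-value with changes under 2-fold. All 24 h values lay above all 0 h values in 1335 of the 1336 upregulated genes and below them in all 791 downregulated genes, a separation that 29.0% and 21.4% of all genes tested also showed. These are measurements on whole aerial tissue, in which fewer cells of a type and less RNA per cell cannot be told apart.

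The balance between rises and falls depended on the test, among genes with few reads and also at 10 to 100 CPM. The edgeR quasi-likelihood test on the whole reads recovered from the CPM values called 1593 genes up (7.35%) and 1399 down (6.45%). It called 97.9% of the upregulated and 99.9% of the downregulated genes of limma, which in turn covered 82.1% and 56.5% of the edgeR calls. The 609 genes that were downregulated in edgeR alone had a median of 2.71 CPM over the 6 samples, against 11.5 CPM for the downregulated genes shared by both tests. Among the 9657 genes with 10 to 100 CPM at 0 h, limma called 536 up and 430 down, against 516 and 552 in edgeR. The edgeR test also applied TMM normalization factors, which the main limma fit did not. On the log2(CPM + 1) scale a gene under 1 CPM at 0 h cannot fall by 1, so that none of the 2278 such genes was downregulated, whereas 198 were upregulated. In edgeR 346 of them were upregulated and 51 downregulated. A gene under 0.5 CPM in all 0 h samples entered the comparison only by its 24 h level, which also favours rises in this set. A gene under 1 CPM at 24 h likewise cannot rise by 1 on this scale. The split among genes chosen by their 0 h level therefore does not show that the scale favours rises.

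**Figure D1:**
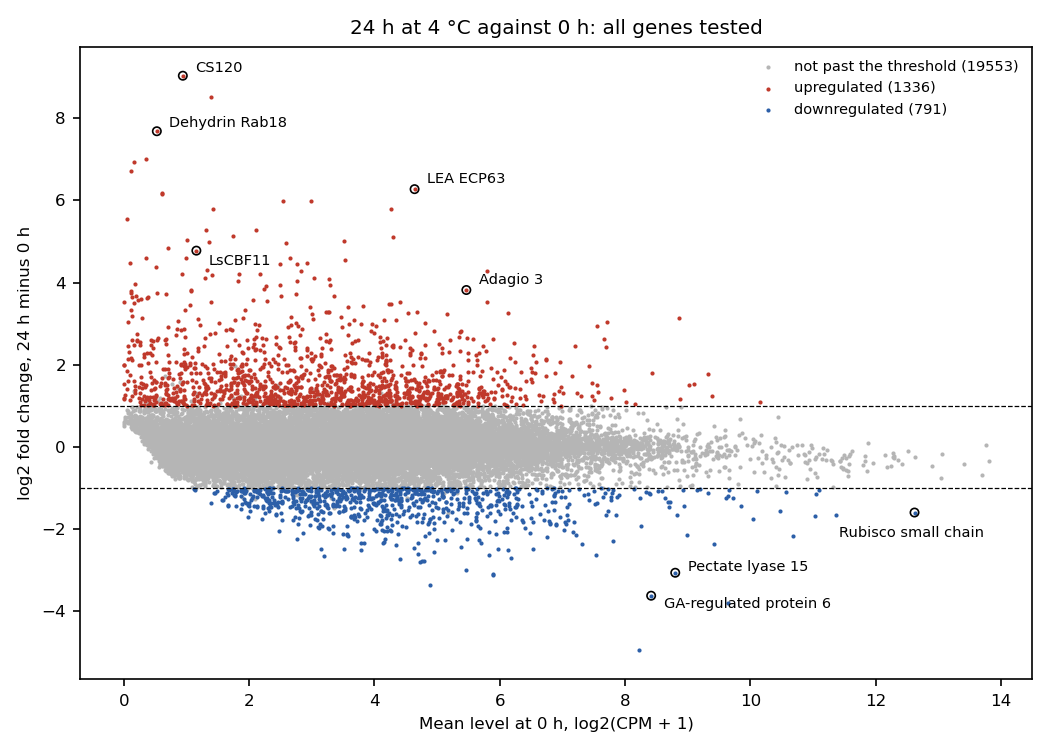
Log2 fold change at 24 h against 0 h (vertical axis) by the mean level at 0 h on the log2(CPM + 1) scale (horizontal axis) for the 21680 genes tested, with 1336 upregulated genes in red and 791 downregulated genes in blue. Dashed lines mark a 2-fold change, and the labelled genes are described in the text.

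The share of all reads that fell on these genes shifted accordingly, in directions already fixed by their selection in the same samples. The upregulated genes took 2.73% to 2.80% of the reads in the 0 h samples and 9.96% to 10.8% in the 24 h samples. The downregulated genes took 5.66% to 6.61% at 0 h and 1.96% to 2.52% at 24 h. The shares called differed with the level at 0 h, which was not tested. Among the 114 genes with at least 1000 CPM at 0 h, 10 (8.77%) were downregulated and 1 was upregulated (11 and 0 in edgeR). Among the 8211 genes with 1 to 10 CPM 563 (6.86%) were upregulated and 263 (3.20%) downregulated, against 695 and 685 in edgeR. The excess of rises at 1 to 10 CPM thus depended on the test. Levels were taken at 0 h, 1 side of the comparison, which on that account alone favours rises at low and falls at high levels. The 100 genes with the most reads took 30.0% to 32.7% of the reads at 0 h and 25.4% to 26.4% at 24 h. Changed genes were found on all linkage groups, with 5.15% to 6.81% of the genes tested on each upregulated.

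Of the 14 LsCBF genes of lettuce, 9 were tested. LsCBF1 and LsCBF4 had too few reads in the 6 samples, and LsCBF2, LsCBF6 and LsCBF13 were not analysed here. A total of 6 were upregulated at 24 h, and none was downregulated. All 9 genes tested lie on linkage group 9. LsCBF11 (Ls9g54780.1) was at 1.02, 1.44 and 1.24 CPM in the 0 h samples and at 55.9, 52.4 and 73.7 CPM in the 24 h samples. It thus rose 49.2-fold, with a log2 fold change of 4.78 ± 0.144 (SE) and an adjusted p-value of 1.49e-10. LsCBF12 (Ls9g54680.3) was at 0.154, 0.148 and 0.571 CPM and 11.6, 12.4 and 22.4 CPM, a 53.1-fold rise (adjusted p = 3.31e-08). In both genes the 24 h replicate 3 was the highest, and the groups lay far apart. LsCBF10 (Ls9g54860.1) had at most 2 reads in each 0 h sample and 6.35, 5.47 and 12.4 CPM at 24 h, and was at least 54.3-fold higher (adjusted p = 2.62e-07). LsCBF7 (Ls9g54581.2), which already had 3.95, 5.45 and 4.14 CPM at 0 h, rose 4.76-fold to 17.9, 20.8 and 25.8 CPM (adjusted p = 3.72e-07). LsCBF9 and LsCBF5 rose from 0.117 to 2.45 CPM and from 0.0989 to 1.67 CPM on average.

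The other 3 LsCBF genes tested did not pass the threshold. LsCBF14 (Ls9g114720.1), which lies apart from the cluster of the other genes on linkage group 9, had 8.61, 9.06 and 13.8 CPM at 0 h and 16.4, 19.97 and 22.4 CPM at 24 h, a log2 fold change of 0.86 (adjusted p = 0.00249). Its 0 h replicate 3 was the highest of the group, and without this sample the log2 fold change was 1.05 and passed. LsCBF8 (Ls9g54900.1) had no read at 0 h and 0.206, 0.713 and 0.521 CPM at 24 h, with a log2 fold change of 0.55 in limma, and was upregulated in edgeR (adjusted p = 0.000678). The paper reports that the LsCBF8 sequence was incomplete in the genome version used for alignment, and corrected it by Sanger sequencing. Whether this lowered its counts was not tested. LsCBF3 changed from 0.227 to 0.674 CPM (adjusted p = 0.0395).

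LsCBF8 to LsCBF10 belong to a tandem cluster on linkage group 9, and reads from stretches that such copies share may have been assigned to either. The primer sequences designed by the study, 5′ to 3′, are shown because 1 pair served for LsCBF8 to LsCBF10, whereas LsCBF11 and LsCBF12 each had a pair of their own.
LsCBF8-10 forward: catgtcgtagcaaaagctcagtcttg
LsCBF8-10 reverse: tttcgtgaagccaacatcacttcgg
LsCBF11 forward: tatcggaaagtattcccttagtacgca
LsCBF11 reverse: gattctgcagcggcgttcaatacggc
LsCBF12 forward: ttgcagcacaacctctgtcttgaatg
LsCBF12 reverse: tcccctgtacaccggatgtctagtct

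Gene functions beyond the LsCBF genes came from descriptions in a list of cold-responsive genes compiled by the study from these samples. The part used here described 1556 of the genes tested, on linkage groups 0 to 4. Copies of a gene outside this part, such as any on linkage groups 5 to 9, could not enter the groups below. Among these, 402 (25.8%) were upregulated and 241 (15.5%) were downregulated at 24 h, far above the shares in all genes, because the list was selected for such changes. The counts of the groups below are thus not independent evidence of a direction, and are read against 25.8% and 15.5%. The median log2 fold change was 0.13 over the described genes and 0.04 over all genes tested.

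**Figure D2:**
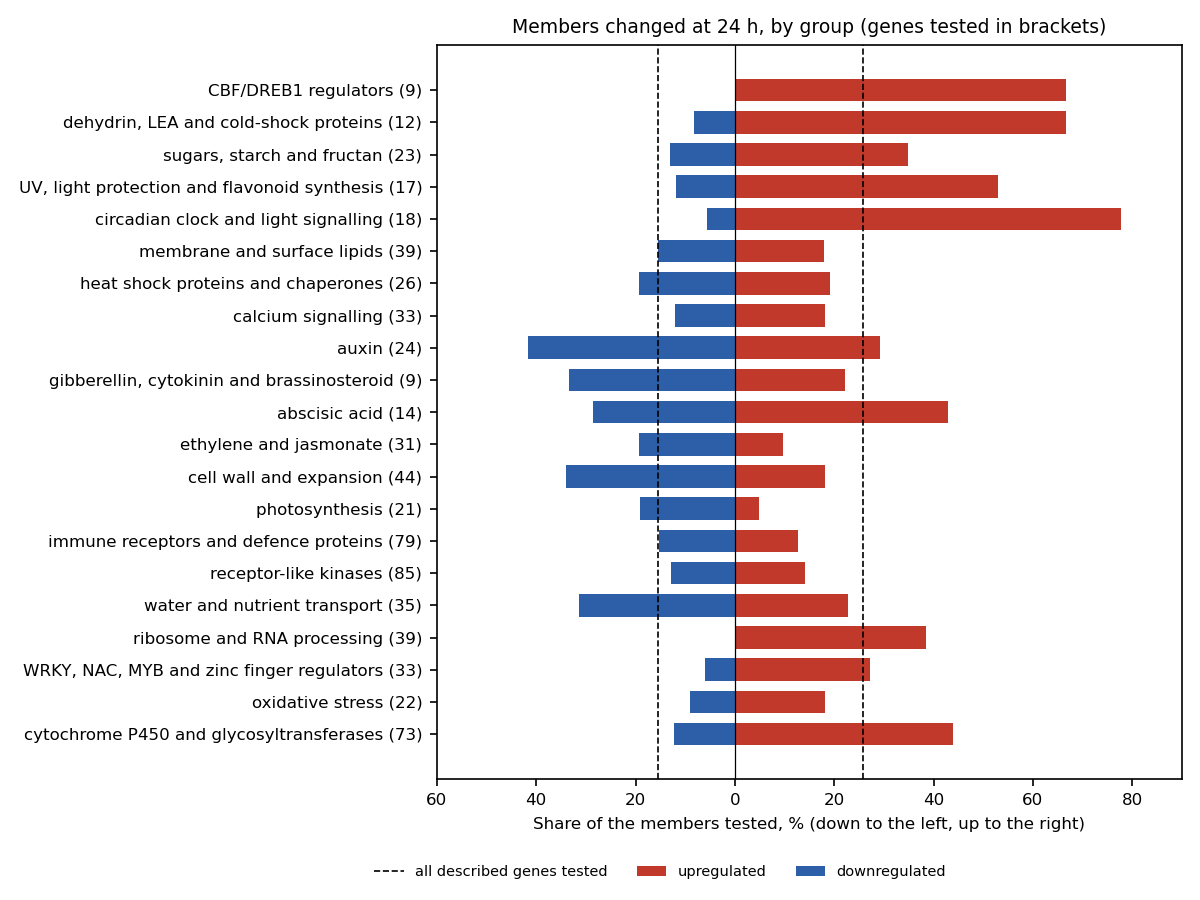
Share of the members tested of each group of described genes that was upregulated (to the right) or downregulated (to the left) at 24 h, in percent, with the number of members tested in brackets. Dashed lines mark 25.8% up and 15.5% down for all described genes, and the clock and light signalling group reached the highest share of upregulated members, 14 of 18.

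Genes of dehydrins, LEA and cold-shock proteins held 4 of the 10 largest rises among all genes. Of 12 genes tested 8 were upregulated and 1 was downregulated, with a median log2 fold change of 2.30. Dehydrin Rab18 (Ls3g74801.1), related to a dehydrin of Arabidopsis that responds to abscisic acid, had 0.256, 0.594 and 0.476 CPM at 0 h and 252, 316 and 318 CPM at 24 h. This was a 668-fold rise, with a log2 fold change of 7.68 ± 0.198 and an adjusted p-value of 3.58e-11. A gene described as cold-shock protein CS120 (Ls3g76921.1), a dehydrin first found in wheat, reached 1007 ± 41.8 CPM (SD, n = 3) from 0.922 ± 0.0711 CPM. The other gene with this description (Ls3g77021.1) had 0.615, 0.0495 and 0.904 CPM at 0 h and 84.2, 124 and 106 CPM at 24 h, a 200.4-fold rise (adjusted p = 1.52e-09). Its 0 h level varied more than 10-fold among samples, yet the lowest 24 h sample was far above all of them.

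Other genes of this group started from different levels. A pair of genes described as LEA protein ECP63, a protein known from carrot embryos, was already present in the warm. Ls2g24040.2 was at 20.6, 21.6 and 29.6 CPM at 0 h and 1926, 2146 and 1673 CPM at 24 h, and Ls2g23920.1 at 15.5, 15.2 and 23.9 CPM and 973, 1209 and 963 CPM. These were 79.9-fold and 57.7-fold rises (adjusted p = 1e-11 and 8.1e-11). Dehydrin COR47 (Ls3g74761.1), by contrast, stayed near the detection limit in the warm, at 0.205, 0 and 0.0952 CPM, and reached 4.28, 7.04 and 6.02 CPM. The gene of the embryonic protein DC-8 (Ls2g23681.2), another LEA protein of carrot, had no read at 0 h and 2.53, 2.76 and 3.69 CPM at 24 h, and was at least 20.2-fold higher. Cold shock protein 1 (Ls0g39260.1), related to RNA chaperones of Arabidopsis, rose 2.29-fold, from 13.8 ± 1.21 to 31.7 ± 2.20 CPM. Dehydrin Xero 1 (Ls3g75820.1) was at 4.51 and 9.996 CPM and fell just short of the threshold in limma, whereas edgeR, and limma without the 0 h replicate 3, called it upregulated (log2 fold changes of 1.09 and 1.09). The gene that was downregulated encodes a BURP domain protein related to RD22 (Ls1g48900.1), known in Arabidopsis as a dehydration-responsive gene, and fell 2.69-fold (adjusted p = 9e-04).

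**Figure D3:**
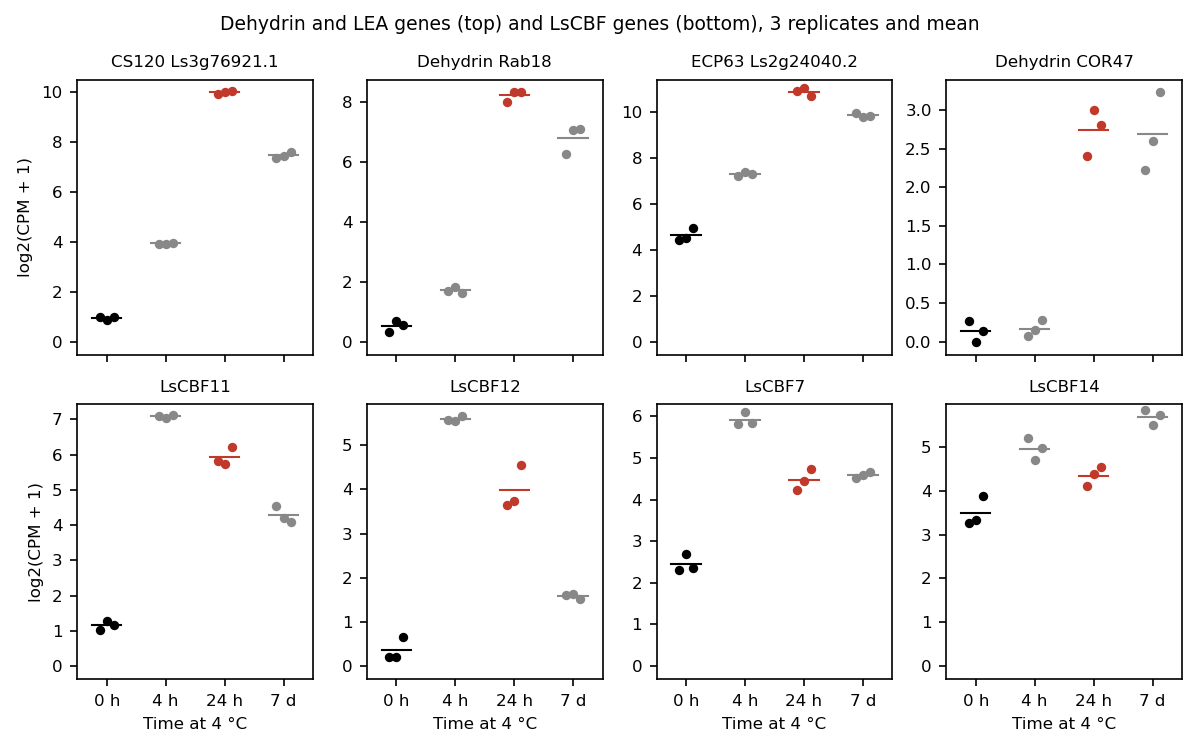
Level in each of the 3 replicates (points) and their mean (line) in warm plants (0 h) and after 4 h, 24 h or 7 d of cold, on the log2(CPM + 1) scale with a separate vertical axis for each gene. The dehydrin and LEA genes in the top row were far higher at 24 h (red) than at 0 h (black), whereas LsCBF11, LsCBF12 and LsCBF7 were above 0 h at 24 h but below 4 h.

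Sugar, starch and fructan genes split, with 8 of 23 upregulated, 3 downregulated and a median log2 fold change of -0.02. The largest rises were in genes of enzymes that release sugars. Beta-amylase 3 (Ls3g15861.1), related to a chloroplast enzyme that breaks starch down to maltose, was at 8.46, 10.6 and 7.42 CPM at 0 h and 133, 138 and 175 CPM at 24 h, a 16.8-fold rise (adjusted p = 4.25e-10). Beta-fructofuranosidases, or invertases, which split sucrose into glucose and fructose, changed in both directions, with 2 of 7 genes up and 2 down. The soluble isoenzyme gene Ls2g125121.3 rose 6.13-fold, from 177, 195 and 232 CPM to 1346, 1239 and 1119 CPM (adjusted p = 4.12e-08). A second gene of the same description, Ls3g3061.1, rose 37.3-fold, from 0.308, 1.19 and 1.24 CPM to 24.9, 35.9 and 41.2 CPM. The acid invertase gene Ls3g2180.1 fell 9.11-fold, from 10.8, 20.2 and 29.8 CPM to 1.08, 1.52 and 4.07 CPM (adjusted p = 5.46e-05). Its replicates differed widely in both groups, but the groups did not overlap.

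Genes of sugar synthesis and transport were also among the upregulated. A galactinol-sucrose galactosyltransferase gene (Ls0g32100.1), whose enzyme makes raffinose, rose 4.57-fold to 123 ± 4.07 CPM. Sucrose-phosphatase 1 (Ls1g56881.1), which completes the synthesis of sucrose, rose 2.51-fold, and the sucrose transport protein gene SUC4 (Ls1g221.1) rose 2.54-fold to 478 ± 33.4 CPM. A gene of a sugar transporter, ERD6-like 16 (Ls3g26081.1), fell 3.95-fold. Of the pair of proline metabolism genes tested, 1 was upregulated.

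Clock and light signalling genes were the group with the highest share of upregulated members, 14 of 18, with 1 downregulated and a median log2 fold change of 2.05. The counts were the same in edgeR and without the 0 h replicate 3. Adagio protein 3 (Ls3g106121.1), known in Arabidopsis as the blue-light receptor FKF1 of the photoperiod pathway, had 42.7, 44.9 and 42.1 CPM at 0 h and 658, 617 and 596 CPM at 24 h. It rose 14.4-fold, with a log2 fold change of 3.82 ± 0.0840 and an adjusted p-value of 1e-11. LHY (Ls3g140720.1), a transcription factor of the morning phase of the Arabidopsis clock, was at 4.77, 5.59 and 6.81 CPM and 46.2, 55.96 and 56.2 CPM, a 9.22-fold rise (adjusted p = 6.42e-09). REVEILLE 1 (Ls3g67100.1) and REVEILLE 8 (Ls2g109801.1), related MYB-type factors, rose 5.91-fold and 2.77-fold. All 4 genes separated the groups without overlap.

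Pseudo-response regulators moved in different directions. PRR1 (Ls1g14320.1), the pseudo-response regulator also called TOC1 in Arabidopsis and part of the evening phase of the clock, rose 4.23-fold, from 9.49, 7.52 and 6.19 CPM to 33.96, 35.8 and 28.4 CPM (adjusted p = 7.2e-07). EARLY FLOWERING 3 (Ls3g25981.2), a member of the evening complex in Arabidopsis, rose 2.85-fold to 54.9 ± 3.35 CPM. Another pseudo-response regulator, PRR37 (Ls2g115441.2), was the member that fell, from 131, 131 and 112 CPM to 53.0, 54.6 and 51.5 CPM, or 2.36-fold (adjusted p = 1.24e-06). LNK2 (Ls1g114861.2) did not pass the threshold, and its 0 h values of 71.1, 57.2 and 30.9 CPM spanned those at 24 h, whereas LNK4 (Ls1g118261.3), which belongs to the same family of clock co-activators, rose 8.25-fold.

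Genes of the responses to light and day length also rose. B-box zinc finger protein 32 (Ls1g39541.1), known in Arabidopsis as a regulator of light responses, had 1.13, 0.792 and 1.38 CPM at 0 h and 25.7, 27.6 and 31.2 CPM at 24 h, a 25.6-fold rise (adjusted p = 3.53e-10). CONSTANS-LIKE 2 (Ls2g86121.1) rose 6.20-fold to 360.2 ± 13.1 CPM, and Cyclic dof factor 2 (Ls2g88380.1), a repressor of CONSTANS in Arabidopsis, rose 6.82-fold to 52.8 ± 4.30 CPM. B-box zinc finger protein 24 (Ls1g77880.1) had a log2 fold change of 0.90 and did not pass.

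**Figure D4:**
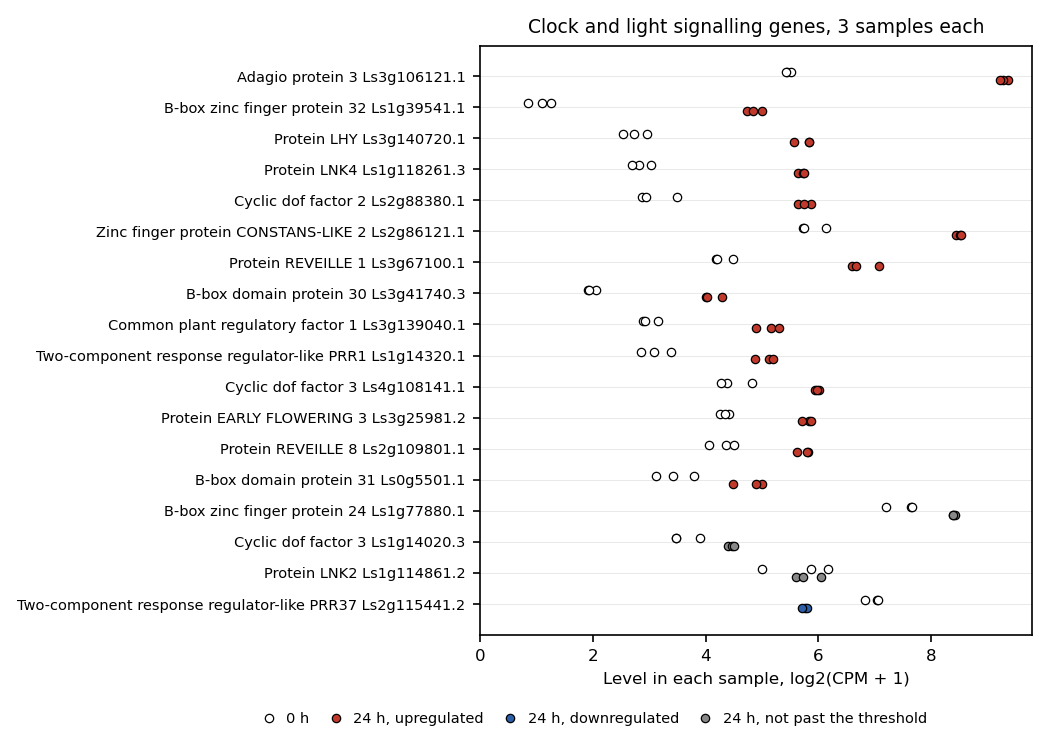
Level of each of the 18 clock and light signalling genes in the 3 samples at 0 h (open) and at 24 h (filled), on the log2(CPM + 1) scale, ordered by log2 fold change. The 14 genes in red were upregulated, PRR37 in blue was downregulated, and in LNK2 the 0 h samples spanned those at 24 h.

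Genes of UV response, flavonoid synthesis and secondary metabolism were more often up than down. Of 17 UV, light protection and flavonoid genes 9 were upregulated and 2 downregulated, with a median log2 fold change of 1.21. Phenylalanine ammonia-lyase 3 (Ls2g106520.1), of the entry enzyme of phenylpropanoid synthesis, was at 65.7, 82.7 and 101 CPM at 0 h and 215, 171 and 205 CPM at 24 h, a 2.37-fold rise (adjusted p = 7.92e-05). Genes of the hydroxylases that decorate the B ring of flavonoids moved both ways. A flavonoid 3'-monooxygenase gene (Ls3g2660.1) was 3.99-fold higher at 5.15 CPM, a call that was lost without any single replicate other than the 0 h replicate 2 (log2 fold changes of 1.21 to 1.57), whereas another with this description (Ls3g2640.1) fell 2.67-fold to 12.9 CPM, and a flavonoid 3',5'-hydroxylase gene (Ls3g11961.1) fell 2.40-fold. Among 73 genes of cytochrome P450 enzymes and glycosyltransferases, families that modify many small molecules, 32 were upregulated and 9 downregulated (16 in edgeR). The share upregulated was 16 of 41 for cytochrome P450 genes and 12 of 24 for UDP-glycosyltransferase genes. UDP-glycosyltransferase 74G1 (Ls2g50620.1) rose 28.6-fold, from 1.69, 1.49 and 1.81 CPM to 50.3, 51.4 and 41.1 CPM (adjusted p = 2.26e-08). A gene of cytochrome P450 CYP72A219 (Ls3g36380.1) rose 6.43-fold to 280.3 ± 13.6 CPM, and another cytochrome P450 gene (Ls1g23581.2) fell 5.86-fold.

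Water and nutrient transporter genes were downregulated in 11 of 35 cases and upregulated in 8, with a median log2 fold change of -0.80. Aquaporins, which form water channels in membranes, made up 15 of them, with 7 downregulated, 2 upregulated and 6 past neither threshold. All 7 described genes of plasma membrane aquaporins (PIP) had lower means at 24 h, with log2 fold changes of -2.15 to -0.51, and 4 of them passed the threshold. PIP2-2 (Ls1g64300.1) fell from 422, 495 and 596 CPM to 92.7, 111 and 136 CPM, a 4.46-fold fall (adjusted p = 2.83e-07). PIP2-7 (Ls3g47760.1) fell 3.17-fold, from 499, 462 and 400.2 CPM to 122, 134 and 174 CPM. PIP1-2 (Ls2g121480.1) fell 4.30-fold, and PIP2-4 (Ls2g108920.1) fell 3.83-fold with a wide spread at 24 h, at 11.8, 13.3 and 44.5 CPM. Genes that share a description, such as Ls2g108920.1 and Ls2g108980.1 (PIP2-4), may have exchanged reads if their sequences are alike, which was not examined.

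The tonoplast aquaporin gene TIP2-1 (Ls4g101281.1), of the vacuolar membrane, fell 2.23-fold, from 1840, 1979 and 2533 CPM to 848, 927 and 1067 CPM (adjusted p = 1.43e-05). A pair of TIP1-1 genes had log2 fold changes of -0.91 and -1.12 and did not pass. SIP1-2 (Ls2g59281.1), of a group of small aquaporins known from internal membranes, changed the other way, from 16.97, 16.5 and 17.9 CPM to 101, 107 and 91.7 CPM, a 5.82-fold rise (adjusted p = 9.5e-10). All 3 of its 24 h values exceeded all 0 h values several-fold.

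**Figure D5:**
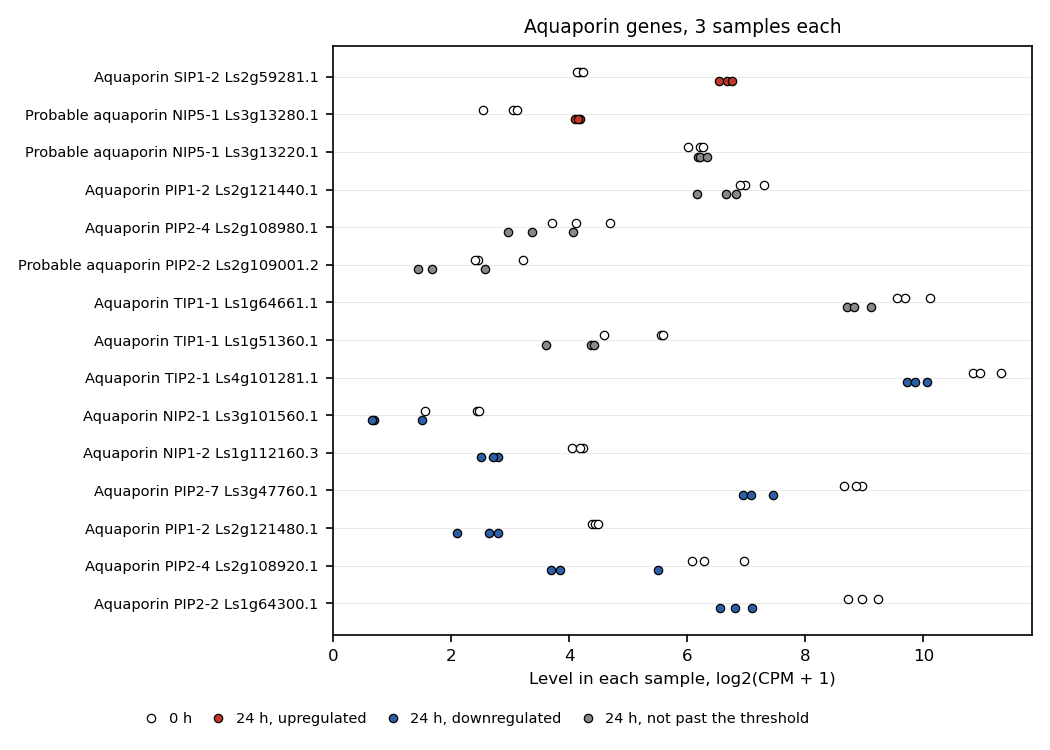
Level of each of the 15 aquaporin genes in the 3 samples at 0 h (open) and at 24 h (filled), on the log2(CPM + 1) scale, ordered by log2 fold change. The 7 genes in blue were downregulated, SIP1-2 and 1 of the NIP5-1 genes in red were upregulated, and the genes in grey did not pass the threshold.

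Nitrate and peptide transporter genes did not move in 1 direction, with 5 of 15 upregulated and 3 downregulated (5 in edgeR). The gene described as NRT1/PTR FAMILY 1.2, Ls1g47261.1, of a family that carries nitrate and other small molecules, was at 1.49, 0.990 and 2.00 CPM at 0 h and 89.3, 98.6 and 96.97 CPM at 24 h. This 63.6-fold rise had a log2 fold change of 5.29 ± 0.141 and an adjusted p-value of 4.82e-11. A second gene of this description, Ls4g101760.1, fell 3.64-fold, from 128, 137 and 170.4 CPM to 33.6, 40.4 and 45.5 CPM (adjusted p = 3.73e-07). The high affinity nitrate transporter 2.7 gene (Ls2g91541.1) rose 49.5-fold, from 1.74, 2.42 and 2.90 CPM to 117, 135 and 98.2 CPM. NRT1/PTR FAMILY 2.11 (Ls4g107200.1), related to a transporter of glucosinolates in Arabidopsis, rose 6.59-fold to 114 ± 6.88 CPM.

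Cell wall genes changed in both directions. Of 44 genes 15 were downregulated, 8 were upregulated and 21 did not pass, with a median log2 fold change of -0.61. Pectate lyase 15 (Ls2g43400.1), of an enzyme family that cleaves pectin, was at 407, 479 and 448 CPM at 0 h and 43.8, 44.5 and 72.7 CPM at 24 h, an 8.29-fold fall (adjusted p = 2.4e-08). Xyloglucan endotransglucosylase/hydrolases cut and rejoin the xyloglucan that ties cellulose fibrils, and 3 of 5 such genes fell while the others did not pass. The most abundant by reads, Ls3g84840.1, fell 3.05-fold, from 1046, 1155 and 2076 CPM to 376, 444 and 581 CPM (adjusted p = 0.00012), with the 0 h replicate 3 the highest. Expansins loosen walls without cutting them, and genes described as expansin-A1 (Ls0g860.1 and Ls4g11020.1) fell 2.89-fold and 2.19-fold, the latter short of the threshold without the 0 h replicate 1 (log2 fold change -0.92). Other wall genes rose strongly. Expansin-like A1 (Ls3g47800.1) was at 2.82, 2.38 and 2.57 CPM at 0 h and 56.2, 70.1 and 69.8 CPM at 24 h, a 25.3-fold rise (adjusted p = 5.65e-10). A polygalacturonase gene (Ls1g40460.1) rose 22.6-fold to 45.8, 59.05 and 66.8 CPM, and expansin-A15 (Ls4g109320.1) rose 5.88-fold.

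Outside the wall group, the gene of mannan endo-1,4-beta-mannosidase 5 (Ls4g132740.2), of an enzyme that cleaves mannans, was among the 10 largest rises of all genes. It had 0.154, 0.0990 and 0 CPM at 0 h, 3 reads or fewer in each sample, and 110.1, 106 and 121 CPM at 24 h. The level was at least 758-fold higher (adjusted p = 2.82e-13), and at 4 h and 7 d the means were 0.497 and 1.49 CPM.

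Auxin genes changed often and in both directions, with 10 of 24 downregulated and 7 upregulated and a median log2 fold change of -0.81. Members of the SAUR family, small proteins that promote cell expansion in Arabidopsis, were lower in 5 of 10 cases and higher in 1 (2 in edgeR). PIN-LIKES genes, whose products carry auxin at the endoplasmic reticulum, divided evenly, with 3 of 7 up and 3 down. PIN-LIKES 7 (Ls2g73941.1) was at 0.205, 0.247 and 0 CPM at 0 h and 15.4, 12.9 and 12.6 CPM at 24 h, a 90.4-fold rise (adjusted p = 3.95e-09). The size of this fold is uncertain, since the 0 h mean of 0.151 CPM lies near the 0.148 CPM taken as detectable. The auxin-responsive repressor gene IAA16 (Ls4g104440.2) rose 9.93-fold, from 3.90, 2.48 and 3.43 CPM to 31.2, 35.3 and 30.8 CPM, without overlap.

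Of 9 gibberellin, cytokinin and brassinosteroid genes 2 were upregulated and 3 downregulated. The gene of gibberellin-regulated protein 6 (Ls2g90361.1), of a family of small cysteine-rich proteins, had the largest fall of all described genes. It was at 366, 365 and 289.9 CPM at 0 h and 22.1, 23.96 and 35.1 CPM at 24 h, a 12.6-fold fall with a log2 fold change of -3.62 ± 0.159 (adjusted p = 3.78e-09). Gibberellin 3-beta-dioxygenase 1 (Ls1g34061.1), which makes bioactive gibberellin, rose 3.74-fold to 8.55 CPM. LOG7 (Ls2g8460.1), of an enzyme family that activates cytokinins, rose 7.65-fold to 16.4 CPM.

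Abscisic acid (ABA) genes changed in both directions. Of 14 genes 6 were upregulated and 4 downregulated. PYL proteins are the ABA receptors, and PYL6 (Ls2g125581.1) fell 5.50-fold, from 12.2, 25.3 and 21.7 CPM to 3.35, 3.28 and 4.12 CPM (adjusted p = 6.82e-06). PYL1 (Ls3g17760.1) fell 2.76-fold, whereas PYL8 (Ls3g10421.1) rose 2.29-fold to 58.6 ± 5.69 CPM. Further down the pathway, ABI5-like bZIP factors activate ABA-responsive promoters, and a pair of genes described as ABI5-like protein 5 rose 3.62-fold (Ls4g126380.1, to 41.2 CPM) and 3.64-fold (Ls1g21140.1, to 22.9 CPM). AFP1 (Ls4g11900.1), of a family that binds ABI5 in Arabidopsis, rose 4.83-fold. Protein phosphatase 2C 3 (Ls2g118601.1) rose 3.57-fold, from 22.1, 22.1 and 21.4 CPM to 68.3, 82.8 and 83.5 CPM (adjusted p = 3.18e-08), and genes of protein phosphatases 2C 12 and 2C 15 fell.

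Ethylene and jasmonate genes were upregulated in 3 of 31 cases (5 in edgeR) and downregulated in 6, or 4 without the 0 h replicate 3. Genes of the core of the ethylene pathway were among the falls. Both described genes of EIN2, the membrane protein that passes on the ethylene signal, were lower. Ls2g106480.2 fell 3.08-fold, from 82.2, 116 and 127 CPM to 34.5, 35.1 and 35.96 CPM (adjusted p = 3.31e-06), and Ls1g53261.1 fell 2.33-fold, from 116 ± 8.31 to 49.7 ± 2.79 CPM. The gene of EIN3 (Ls2g35880.1), the transcription factor downstream of EIN2, fell 2.10-fold to 13.9 ± 0.411 CPM (adjusted p = 1.41e-05), and did not pass the threshold without the 0 h replicate 3 (log2 fold change -0.89) or the 24 h replicate 2 (-0.99).

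Photosynthesis genes were upregulated in 1 of 21 cases and downregulated in 4, and 18 of the 21 had a log2 fold change below 0, with a median of -0.43. Among 5 genes of the small chain of Rubisco, the CO2-fixing enzyme, 1 passed the threshold. Ls2g79581.1 fell 2.98-fold, from 6079, 6093 and 6690 CPM to 1826, 1798 and 2713 CPM (adjusted p = 2.19e-06), and had the most reads at 0 h of all downregulated genes. Copies in such families can be near-identical, which was not examined here, so that their separate values are uncertain. Chlorophyll a-b binding protein 16 (Ls2g102941.1), of the light-harvesting antenna, fell 2.11-fold, from 1481, 1449 and 1620 CPM to 604, 711 and 837 CPM, and the photosystem II repair protein gene PSB27-H1 (Ls3g39480.1) fell 2.07-fold. Both lie close to the threshold of 2-fold and did not pass it without the 24 h replicate 1, which left 2 photosynthesis genes downregulated. Chlorophyll a-b binding protein 21 (Ls1g95341.1), at 2311 and 2040 CPM, did not pass (log2 fold change -0.18).

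Defence and receptor genes were not a group of rises. Of 79 immune receptor and defence genes 10 were upregulated (12 in edgeR) and 12 downregulated (22 in edgeR, and 16 without the 0 h replicate 3), and of 85 receptor-like kinase genes 12 were upregulated (16 in edgeR) and 11 downregulated (37 in edgeR, and 20 without the 0 h replicate 1). Their median log2 fold changes were -0.40 and -0.58. Among 22 genes described as TMV resistance protein N, an intracellular immune receptor of tobacco, 1 rose, 3 fell and 18 did not pass. In edgeR 2 rose and 9 fell, and in limma 6 fell without the 0 h replicate 3 and 2 rose without the 0 h replicate 2. The gene that rose, Ls2g4981.1, was at 0.205, 0.297 and 0.0952 CPM at 0 h and 7.17, 5.75 and 4.36 CPM at 24 h. Of 4 genes of receptor-like protein EIX2, known in tomato as a receptor of a fungal xylanase, 2 rose and 2 did not pass (lowest log2 fold change -0.38). Ls1g103040.1 rose 132-fold, from 0.0513, 0 and 0.238 CPM at 0 h to a mean of 12.7 CPM. Its 0 h mean of 0.0964 CPM lies below the 0.148 CPM taken as detectable, so that the size of this fold is uncertain. Ls2g127221.1 rose 11.5-fold to 11.2 CPM. Chitinase 4 (Ls3g124781.1), of enzymes that cleave the chitin of fungal walls, was at 2.00, 2.13 and 3.14 CPM at 0 h and 34.1, 29.6 and 21.2 CPM at 24 h, an 11.7-fold rise (adjusted p = 1.45e-05).

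Other transcription factor genes, of the WRKY, NAC, MYB, zinc finger and homeodomain-leucine zipper families, were upregulated in 9 of 33 cases and downregulated in 2 (5 in edgeR). HAT22 (Ls2g80441.1), 1 of 4 homeodomain-leucine zipper genes of which 2 passed, rose 7.37-fold, from 8.31, 9.50 and 7.19 CPM to 64.5, 63.6 and 56.2 CPM (adjusted p = 1.41e-09). WRKY4 (Ls3g98441.3), related to a regulator of pathogen responses in Arabidopsis, fell 6.09-fold, from 51.3, 75.8 and 57.2 CPM to 10.4, 8.51 and 11.3 CPM (adjusted p = 5.22e-08).

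Genes of ribosome assembly and RNA processing shifted by small amounts, with a median log2 fold change of 0.89. Of 39 genes, 37 had a log2 fold change above 0, 15 were upregulated and none was downregulated (1 in edgeR). Many members lie near the threshold of 2-fold, and without the 0 h replicate 3 the number upregulated was 7, with 1 downregulated, and without the 24 h replicate 1 it was 9. The gene of nucleolar protein 56 (Ls1g29280.1), a core protein of the complexes that modify ribosomal RNA, showed the largest rise, from 16.0, 16.1 and 17.2 CPM to 54.9, 47.1 and 44.9 CPM, or 2.98-fold (adjusted p = 2.62e-07).

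To place the 24 h state among the other times, the same genes were compared between 24 h and 4 h and between 7 d and 24 h. These comparisons share the 24 h samples with the main one, and genes chosen by their values at 24 h will on that account alone lie more often beyond than short of the other times, so that the counts of such genes are a description. Between 4 h and 24 h, 557 genes rose (2.57%) and 858 fell (3.96%), and between 24 h and 7 d, 258 rose (1.19%) and 563 fell (2.60%). Of the 1336 genes upregulated at 24 h, 469 were higher at 24 h than at 4 h and 48 were lower, 371 were lower at 7 d than at 24 h and 9 higher, and 189 were higher at 24 h than at both other cold times. Of the 791 downregulated genes, 310 were lower at 24 h than at 4 h and none was higher, 77 had risen again at 7 d and 20 had fallen further.

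The groups took different courses around 24 h. The 6 LsCBF genes upregulated at 24 h were all lower then than at 4 h. LsCBF11 had means of 134, 60.6 and 18.6 CPM in order of time in the cold, a log2 change of -1.15 from 4 h to 24 h (adjusted p = 7.65e-05) and of -1.65 from 24 h to 7 d (adjusted p = 8.14e-06). Dehydrin Rab18 (Ls3g74801.1) followed another course, with means of 2.27, 296 and 114 CPM, and rose by 6.50 on the log2 scale between 4 h and 24 h (adjusted p = 4.83e-10). In its group 7 of 12 genes were higher at 24 h than at 4 h, and 8 were lower at 7 d than at 24 h. REVEILLE 1 (Ls3g67100.1) had means of 285, 110.3 and 48.6 CPM, whereas Adagio protein 3 (Ls3g106121.1) had 546 and 623 CPM at 4 h and 24 h, a difference that did not pass (adjusted p = 0.101). PIP2-2 (Ls1g64300.1) fell by 1.51 on the log2 scale between 4 h and 24 h (adjusted p = 1.34e-05), and its mean at 7 d was 217 CPM. Gibberellin-regulated protein 6 (Ls2g90361.1) had means of 104, 27.1 and 75.98 CPM, and was the lowest at 24 h.

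Most changed genes had no description in the sources used here, and 30.1% of the upregulated and 30.5% of the downregulated genes had one. Among the others, Ls4g84040.2 had the largest rise, from 1.13, 1.78 and 2.00 CPM to 962, 1036 and 858 CPM, or 582-fold (adjusted p = 4.7e-13). Ls8g27820.3 took more reads at 24 h than any other upregulated gene, at 3939, 4382 and 3664 CPM against 356, 451 and 584 CPM at 0 h (adjusted p = 9.23e-09). The largest fall of all genes was in Ls6g19060.3, from 189, 360.5 and 347 CPM to 4.28, 4.56 and 26.3 CPM, or 25.5-fold (adjusted p = 1.74e-05), with the 24 h replicate 3 well above the others of its group. The log2 fold change was -4.95, and -5.73 without this sample. Ls5g135361.2 fell 13.1-fold, from 766, 927 and 695 CPM to 40.6, 42.7 and 98.5 CPM, with the 24 h replicate 3 again the highest.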

How the data were processed

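The authors deposited CPM values, that is, read counts per gene divided by the library total and scaled to 1000000. Paired-end reads had been aligned by the authors to lettuce genome version 8 with STAR (version 2.5.2, from the submitters' processing notes) and assigned to genes with featureCounts. No further factor was applied, and reads could be recovered exactly, since 100% of the values were multiples of 1 read (tolerance 0.01).

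Groups were taken from the sample titles. In R 4.3.3, limma (version 3.58.1, lmFit and eBayes) was fitted to log2(CPM + 1) of all 12 samples with the 4 times as groups, so that fold changes of genes with few reads are understated. Folds in the text are ratios of mean CPM, and folds against a group with at most 3 reads in every library are lower bounds. A gene entered the test if 2 or more of the 6 samples reached 0.5 CPM. Benjamini-Hochberg adjustment ran over all genes entered, and a gene passed the threshold with a log2 fold change of 1 or more in either direction and an adjusted p-value no higher than 0.01. edgeR (version 4.0.16, quasi-likelihood, TMM) and DESeq2 (version 1.42.0) on the recovered reads were alternatives, and the steps were tested on simulated data. The samples are called biological replicates by the study. What was pooled in each is not given in the sources used here, and p-values measure the spread between these samples.

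Groups of genes were formed by words in the descriptions of the study's list, and 5 xyloglucan enzymes matched by mistake to the defence group were then removed. Genes named by rule are the LsCBF and reference genes, all clock genes, and the 10 with the largest rises, falls or levels at each time. Up to 4 members of each group with the largest changes were also named (mean over the 6 samples 1 CPM or more, no overlap between times). The text describes only part of these genes, and in the UV group none of the 4 with the largest changes. Aquaporins and further members were named after their values were seen. The genes, lists and groups were chosen with earlier results of these data known. Columns of comparisons by the authors were not present in the table used.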

Additional observations from a re-analysis of the deposited data

How the results depend on the processing

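The 1336 genes upregulated and 791 downregulated at 24 h were recomputed under other settings. The number upregulated was 1657 with a pseudocount of 0.1 CPM, 1593 in edgeR and 1591 in DESeq2, and the number downregulated was 1191, 1399 and 1500, so that upregulated genes were 62.8% of the calls in limma, 53.2% in edgeR and 51.5% in DESeq2. A test against a 2-fold change (treat) called 475 up and 112 down. TMM and RLE factors gave 1272 and 1240 up and 884 and 917 down, and moved the median of all genes from 0.04 to 0.01 and -0.01 on the log2 scale. Other filters, the 6 samples alone, an adjusted p-value of at most 0.05 and a trend in the variance gave 1316 to 1367 up and 765 to 807 down. Leaving out single replicates gave 1260 to 1427 up and 694 to 901 down, the lowest count of rises and the highest count of falls both without the 0 h replicate 3.

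The deviations of 0 h and 24 h samples of the same replicate number were only weakly correlated (0.02, 0.08 and 0.11), so that the numbers were not taken as pairs. With the replicate number as a block the counts were 1347 up and 795 down, 1424 between 24 h and 4 h and 829 between 7 d and 24 h. The main counts of the last were 1415 and 821. They were 1423 and 891 with TMM and 1896 and 1341 in edgeR, and 1268 to 1556 and 791 to 841 when single 24 h replicates were left out.

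Of 2259 recomputed values of the 133 genes named by rule, 2246 kept their direction and side of the threshold, 4 newly passed it, 7 no longer passed it and 2 turned their sign without passing it. The last were of LNK2 (Ls1g114861.2), with a log2 fold change of 0.12, -0.22 without the 0 h replicate 3, -0.0098 without the 24 h replicate 3, and up to 0.37 without another replicate. Beside the genes noted in the report the calls lost were those of Ls1g106620.2 without the 0 h or 24 h replicate 1, and Ls8g37801.3, which did not pass in edgeR, DESeq2 or without the 0 h replicate 1. Of 697 values of 41 genes named after their values were seen, 11 newly passed and 13 no longer passed. Those include 3 for Ls3g101560.1 and, among falls that newly passed, 5 for the aquaporin genes Ls1g51360.1, Ls1g64661.1 and Ls2g109001.2. Counts of groups of described genes that moved by more than 1.5 times in edgeR or without a single replicate are given beside them. Depth limits the genes with few reads, whose falls limma on log2(CPM + 1) and edgeR treat differently.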

Other observations

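Further groups of described genes changed in both directions. Of 39 membrane and surface lipid genes 7 were upregulated and 6 downregulated, against 10 and 10 in edgeR and 7 and 3 without the 24 h replicate 1. Digalactosyldiacylglycerol synthase 1 (Ls1g58180.3), which makes a major lipid of chloroplast membranes, was at 109.8, 109 and 99.6 CPM at 0 h and 478, 458 and 467 CPM at 24 h, a 4.41-fold rise (limma, adjusted p = 3.03e-08). At 4 h and 7 d its means were 158 and 135 CPM. Genes described as a delta-7 desaturase of chloroplast lipids changed in opposite directions, Ls1g34480.2 rising 2.37-fold to 98.04 CPM and Ls1g33240.3 falling 2.47-fold to 4.61 CPM. The second did not pass without the 24 h replicate 1 (log2 fold change -0.90) or in a fit of the 6 samples alone.

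Of 22 oxidative stress genes 4 were upregulated and 2 downregulated (5 in edgeR, and 4 without the 0 h replicate 3). The gene of thioredoxin-like 1-1 (Ls2g58761.1), of a family of chloroplast redox proteins, had one of the 10 largest rises of all genes, from 0.256, 0.0495 and 0.0476 CPM to 131, 141 and 132 CPM, or 1144-fold (limma, adjusted p = 4.7e-13). Its 0 h mean of 0.118 CPM lies below the 0.148 CPM taken as detectable, so that the size of this fold is uncertain. Of 33 calcium signalling genes 6 were upregulated and 4 downregulated, against 9 and 8 in edgeR, and 2 were downregulated without the 24 h replicate 1 or 2. The gene of a mitochondrial proton/calcium exchanger (Ls1g76500.2) rose 4.41-fold, from 45.8, 46.9 and 39.3 CPM to 207, 195 and 180 CPM. Calcium-transporting ATPase 2 (Ls4g160760.1), which pumps calcium out of the cytosol, rose 3.13-fold to 95.4 CPM, having been at 278 CPM at 4 h. Of 26 heat shock protein and chaperone genes 5 rose and 5 fell, and 3 of 4 genes described as chaperone dnaJ 11 were among the falls, such as Ls3g72820.3 from 86.5, 112 and 113 CPM to 28.2, 38.9 and 22.9 CPM.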
